A study of Mus musculus with 80 samples.

Results

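The lowest dose of doxycycline (dox) in this study, 0.01 ng/ml, was compared with no dox in 10785 of 10903 barcoded reporters integrated across the genome of mouse embryonic stem cells of the line EBRTcH3. Members were the reporters with 10 or more counts in all 8 genomic DNA libraries of their pool. That left 2241 of 2241 reporters in pool A, 2263 of 2278 in pool B, 3127 of 3176 in pool C and 3154 of 3208 in pool D. The 118 reporters left out had a lowest DNA count of 5 to 9 and a median log2 RNA/DNA change of 0.31, and the 149 just inside, with a lowest DNA count of 10 to 14, had a median of 0.07 on the same scale.

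Every group shared the cell line, whose ROSA26 locus carries the tetracycline-controlled transactivator (tTA), and the reporter, inserted with the piggyBac transposon. Transfected cells with low eGFP were sorted, grown for 5 days and expanded as small pools. Each pool was divided into 2 cultures kept apart for 7 days, after which every culture was seeded at 4 doses of dox for 72 h. The groups compared were RNA and DNA libraries at dox 0 and at 0.01 ng/ml, with 8 cultures in all (4 pools, 2 cultures each), which is 32 of the 80 samples. The construct is called tet-Off in the titles, the plasmid name and the design, but mPGK is the promoter mentioned under growth and treatment. The reporter is taken here as the titles give it. Cultures of 1 pool carry the same integrations, so p-values over cultures measure the spread between such cultures, which is technical per the labels. No endogenous gene was measured, so the cell type could not be checked against its markers.

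In a tet-Off system tTA binds an array of tet operators beside a minimal promoter and drives transcription, and dox bound to tTA takes it off the operators. TRIP, the assay used here, reads many integrations of 1 reporter in parallel: the barcode in RNA counts transcripts, the same barcode in genomic DNA counts the cells that carry the integration, and their ratio is the expression of that site. The reporters share 1 construct and differ in barcode and place. All changes below are relative to the other reporters of the pool, since each library was divided by its own total or scaled to the others, and a decline common to the whole pool would not be seen.

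RNA libraries held 1390040 to 1840870 counts at dox 0 and 1091313 to 1745854 at 0.01 ng/ml, and the median per reporter ranged from 182 to 327 and from 122 to 248. Reporters without a single RNA count made up 0.312% to 0.800% of a library at dox 0 and 0.928% to 2.43% at 0.01 ng/ml. DNA libraries held 925884 to 1519224 and 986617 to 1509967 counts. The reads are PCR products without molecular identifiers.

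The barcodes of the 2 reporters past the threshold for single reporters are shown, each followed by that of an integration beside it in another pool whose values are given below. On chromosome 17 that is the closest one, and on chromosome 1 it is the one with the smallest unadjusted p. Each is the random tag that names 1 integration, printed whole with no part marked, with its mm9 coordinate and strand from the deposited table.
pool A, chromosome 17, position 81202701, minus strand: cagtgtcgcagcgaat
pool C, chromosome 17, position 81202747, minus strand: acgaaagactaccact
pool C, chromosome 1, position 168056327, plus strand: tattatatctgcacgg
pool D, chromosome 1, position 168067445, minus strand: cagatttgaaaatcta

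Relative to the pool mean, reporters that were weak without dox fell at 0.01 ng/ml, and reporters that were strong rose. The log2 values were centred on the mean of the pool's reporters, so a positive change is not a gain in library share. Reporters were sorted into quintiles, 5 groups of equal size, by their log2 RNA/DNA level at dox 0 in one culture of a pool, and the change was read in the other culture, so that the counting error of a library did not enter both. The mean log2 change was −0.38 ± 0.030 in the lowest quintile, −0.17 ± 0.029 in the second, 0.01 ± 0.021 in the middle, 0.17 ± 0.045 in the fourth and 0.38 ± 0.028 in the highest (SD, n = 8 cultures). The quintiles stood in this order in 8 of 8 cultures, and the values of the lowest and the highest quintile did not overlap between cultures.

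The gap between the highest and the lowest quintile was 0.76 ± 0.052 on the log2 scale (SD, n = 8 cultures), a 1.69-fold relative shift. The slope of the change on the level was 0.12 ± 0.010 log2 per log2 unit (SD, n = 8 cultures), positive in 8 of 8 cultures, with a two-sided exact permutation p of 0.00781 over all arrangements of the dose labels within cultures. By culture the slope ran from 0.106 to 0.133. With the level read from the same culture the slope was 0.019 (exact permutation p = 0.969), a setting in which the error of the dox 0 library lowers the slope by construction.

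From RNA shares alone, centred on the pool mean in the same way, the change was −0.37 ± 0.041 in the lowest quintile and 0.37 ± 0.018 in the highest. From centred DNA shares it was 0.01 ± 0.029 and −0.01 ± 0.038 (log2, SD, n = 8 cultures). The share of reporters with a change above the pool mean was 37.8% ± 1.43 in the lowest quintile and 67.7% ± 1.91 in the highest (SD, n = 8 cultures). Many reporters of each quintile thus went against the mean of their quintile. In the lowest quintile the median RNA count was 36.8 ± 7.09 at dox 0 and 20.5 ± 5.42 at 0.01 ng/ml, and the share of reporters with no RNA count was 2.53% ± 0.930 and 6.89% ± 2.47 (SD, n = 8 cultures). In the highest quintile the median count was 1194 ± 313 and 1103 ± 327.

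Classes of reporters set by their RNA at the higher doses differed in mean change at the first step. The 3309 reporters with RNA counts in both libraries at 100 ng/ml had a mean log2 change of 0.41 ± 0.020, the 2261 with RNA in 1 of them 0.01 ± 0.038, and the 3472 with RNA at 0.1 but not at 100 ng/ml −0.10 ± 0.038 (SD, n = 8 cultures). The 1743 reporters with no RNA at either higher dose stood lowest, at −0.60 ± 0.062. The change was positive in 68.8% ± 0.653 of the first class and in 32.0% ± 2.38 of the last (SD, n = 8 cultures). Reporters of both classes thus went either way. The order of these classes comes from libraries outside the contrast, but the classes also differ in level at dox 0, with means of 1.13 for the first and −2.04 for the last on the centred log2 scale.

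Within quintiles of the dox 0 level, reporters with RNA in both libraries at 100 ng/ml exceeded the 5215 with none by 0.54 ± 0.020 on the log2 scale (SD, n = 8 cultures). All 8 cultures lay between 0.517 and 0.568, and the exact permutation test gave p = 0.00391, or 0.00977 adjusted over the 5 class comparisons. The 6789 reporters with RNA in both libraries at 0.1 ng/ml exceeded the 1991 with none by 0.78 ± 0.107 (SD, n = 8 cultures), in 8 of 8 cultures, with the same exact permutation p and adjusted value. The p of 0.00391 is the smallest these arrangements can give for these differences.

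The later-dose classes also differed in how they followed the level. Reporters with RNA in both libraries at 100 ng/ml had a mean change above 0 in every quintile, from 0.22 ± 0.069 in the second to 0.55 ± 0.042 in the highest (SD, n = 8 cultures). Reporters with RNA in 1 library at 100 ng/ml ran from −0.23 ± 0.064 in the lowest quintile to 0.27 ± 0.057 in the highest. Reporters with no RNA at 0.1 or 100 ng/ml stayed near −0.61 ± 0.026 and −0.62 ± 0.114 in the lowest and the second quintile. Their slope on the level was −0.021 ± 0.045, against 0.074 ± 0.018 for those with RNA in both libraries at 100 ng/ml (SD, n = 8 cultures), and the difference of these slopes was not tested. The highest quintile of the class without RNA held only 5.63 reporters per culture on average (22.5 over the 4 pools), and the SD of its mean over cultures was 0.61.

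**Figure D1:**
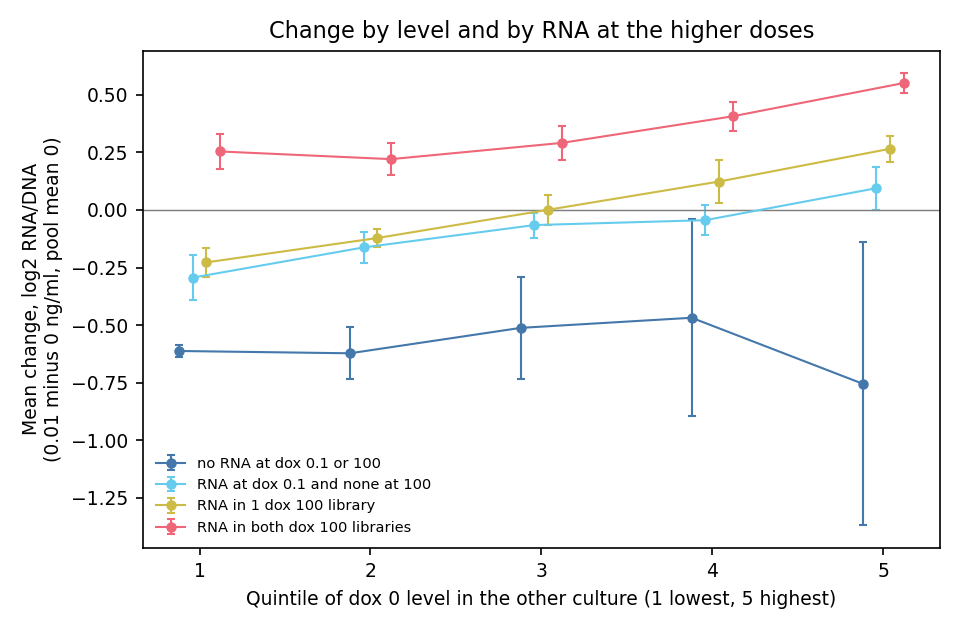
Mean log2 RNA/DNA change (0.01 minus 0 ng/ml) by quintile of the dox 0 level for 4 classes of reporters set by their RNA counts at 0.1 and 100 ng/ml; error bars are the SD over 8 cultures. Reporters with RNA in both libraries at 100 ng/ml lie above 0 in each quintile and those without RNA at either dose lie below 0.

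The density of integrations around a reporter also went with its change. The 4352 reporters with 2 or more others within 100 kb, whatever their pool, exceeded the 346 with none within 500 kb by 0.28 ± 0.214 within level quintiles (log2, SD, n = 8 cultures). The difference was positive in 7 of 8 cultures, from −0.093 in culture 1 of pool A to 0.617 in culture 1 of pool C, and the exact permutation test gave an adjusted p of 0.0130. Leaving out pool B, C or D gave differences of 0.243, 0.247 and 0.296, each with an adjusted exact permutation p of 0.0521. From RNA shares alone the difference was 0.33 ± 0.048 and positive in 8 of 8 cultures.

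The 203 reporters on the X chromosome exceeded the 10576 on autosomes by 0.08 ± 0.270 within level quintiles (log2, SD, n = 8 cultures), with an adjusted exact permutation p of 0.445. The cultures disagreed: pool B stood at 0.277 and 0.383, pool D at 0.251 and 0.215, pool C at 0.012 and −0.014 and pool A at −0.043 and −0.471. Without pool A the difference was 0.188 (adjusted exact permutation p = 0.0391), and with RNA shares alone it was 0.150 in 8 of 8 cultures (adjusted exact permutation p = 0.00977). Reporters on the plus strand differed from those on the minus strand by −0.02 ± 0.063 (SD, n = 8 cultures), with an adjusted exact permutation p of 0.400. From RNA shares alone the strand difference was −0.016, with an adjusted exact permutation p of 0.0273.

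**Figure D2:**
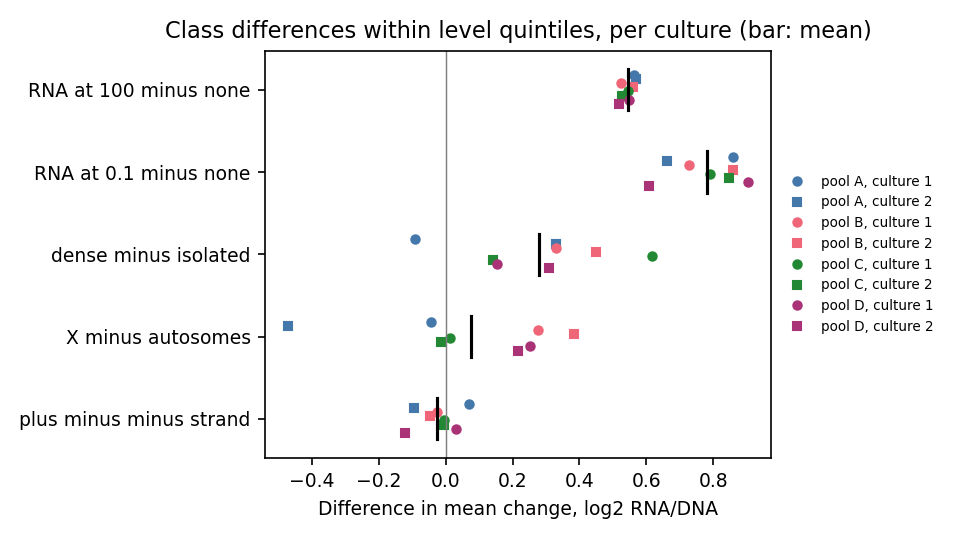
Difference in mean log2 change between 2 classes of reporters within level quintiles; each point is 1 of 8 cultures and the bar is their mean. Both later-dose classes lie above 0 in 8 of 8 cultures, dense minus isolated in 7 of 8, and X minus autosomes on both sides of 0.

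Neighbouring integrations resembled each other in their change although they sat in different pools. Over 1079 pairs from different pools less than 10 kb apart, formed by 1721 reporters, the mean changes of the 2 cultures had an r of 0.35, and after the mean change of the level quintile was taken off it was 0.23. Over 5330 pairs at 10 to 100 kb the values were 0.22 and 0.13, and over 37982 pairs at 100 to 1000 kb they were 0.06 and 0.02. Pairs share reporters and the composition of their region, so these values describe the table. For comparison, the dox 0 level itself had an r of 0.46 over the nearest pairs.

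Of 20 chromosomes, 0 (0%) passed the exact permutation test after adjustment, and 3 (15%) had an unadjusted p under 0.05. Chromosome 11 had the highest mean change against all others, 0.14 ± 0.139, followed by chromosome 4 at 0.13 ± 0.104, each positive in 7 of 8 cultures, and chromosome 10 had the lowest, −0.09 ± 0.092, negative in 7 of 8 (log2, SD, n = 8 cultures). Their adjusted exact permutation p values were 0.156, 0.156 and 0.208. After the mean change of the level quintile was taken off, chromosome 4 was the highest at 0.12 and chromosome 11 stood at 0.07, while chromosome 9 was the lowest at −0.09 and chromosome 10 stood at −0.07, with 0 past the threshold. With RNA shares alone 4 chromosomes passed: chromosome 4 at 0.10, chromosome 11 at 0.13 and chromosome 17 at 0.07 were higher and chromosome 12 at −0.11 was lower, each in 8 of 8 cultures (adjusted exact permutation p = 0.0391).

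**Figure D3:**
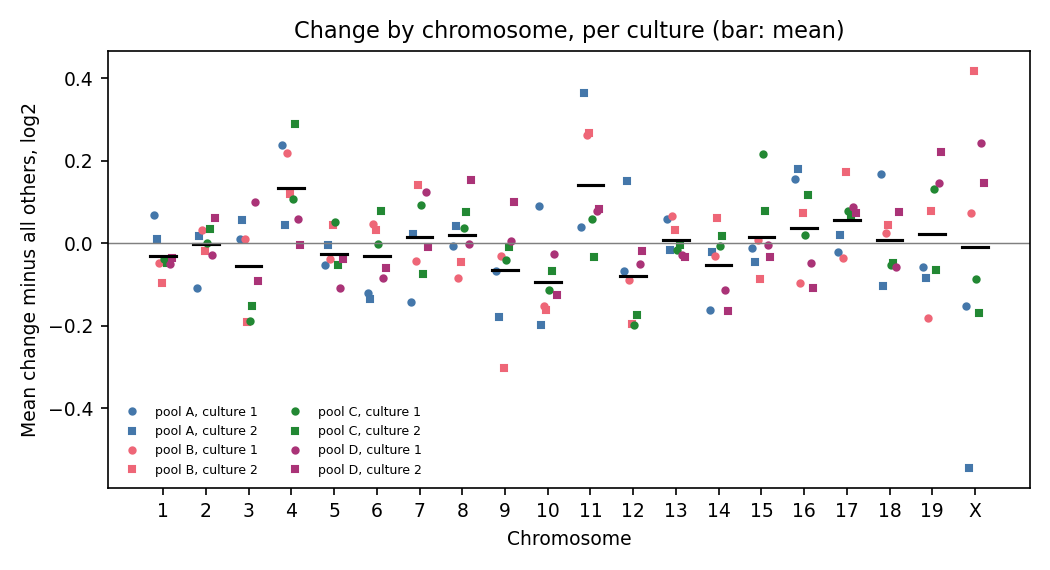
Mean log2 change of the reporters of a chromosome minus that of all other reporters, for 8 cultures (points) and their mean (bars). Chromosomes 4 and 11 have the highest means, 0.13 and 0.14, chromosome 10 the lowest, −0.09, and the cultures of X spread widest.

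Of 358 windows of 5 Mb with 2 or more reporters in every pool, limma called 1 (0.279%), and 45 (12.6%) had an unadjusted p under 0.05. The called window lay on chromosome 12 from 45000001 to 50000000 (mm9), where the mean log2 change was −0.93 in pool A, −1.51 in B, −0.99 in C and −1.15 in D, from 2, 2, 3 and 6 reporters. Its mean was −1.15 ± 0.16 (SE, n = 4 pools), with an adjusted p of 0.0168 by limma. All 4 pools lay below 0, and 11 of the 13 reporters had a mean change below 0, against 47.9% of all reporters. The window was picked by these same values, so the counts only describe it. In 5 of the 13 the change was negative in both cultures, against 28.4% of all, so this count was not far from that of the whole table.

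The reporters of the chromosome 12 window were weak without dox. Of the 13, 12 had a level below the pool mean at dox 0 (47.1% of all reporters), 7 had no RNA at 0.1 or 100 ng/ml (16.2% of all) and 0 had RNA in both libraries at 100 ng/ml (30.7% of all). The lowest value was in pool D at position 47300718 on the minus strand, where RNA went from 35 and 29 counts without dox to 0 and 4 at 0.01 ng/ml. After the mean change of the level quintile was taken off, the window stood at −0.96 and was no longer past the threshold (limma adjusted p = 0.0903). Without pool A, B or D the limma adjusted p was 0.0567, 0.184 and 0.270, with a pseudocount of 5 it was 0.182, and without culture 1 or 2 of every pool it was 0.0576 and 0.446. With a DNA minimum of 100 or a mean RNA count of 10 or more the window no longer held 2 reporters in every pool and was not tested.

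The windows next in rank were not past the threshold. Chromosome 17 from 15000001 to 20000000 had a mean log2 change of 0.66 ± 0.14 (SE, n = 4 pools; limma adjusted p = 0.225) and chromosome 4 from 10000001 to 15000000 one of 0.57 ± 0.16 (limma adjusted p = 0.295). On the low side, chromosome 8 from 35000001 to 40000000 stood at −0.55 ± 0.15 (SE, n = 4 pools; limma adjusted p = 0.295). From RNA shares alone these 3 windows stood nearer to 0, at 0.39, 0.14 and −0.19. The chromosome 8 window stood at −0.12 with a DNA minimum of 100, and the chromosome 17 window at 0.41 without culture 2 of every pool.

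Taken 1 at a time, few reporters passed the test. edgeR called 2 of 10785 reporters (0.0185%), both higher at 0.01 ng/ml, and 532 (4.93%) had an unadjusted p under 0.05, 298 higher and 234 lower. The median fitted log2 change was −0.12 with TMM scaling and −0.33 with DESeq2's size factors, a shift of all reporters that turned the split of the reporters under 0.05 to 177 higher and 367 lower. Fitted on the libraries of these 2 doses only, edgeR called 13 of 10785, all higher. In that fit 1580 (14.65%) had an unadjusted p under 0.05, 794 higher and 786 lower. DESeq2's Wald test called 113 of 10785, 34 higher and 79 lower. By that test 954 (8.85%) had an unadjusted p under 0.05, 240 higher and 714 lower. Without any 1 replicate of either dose the median fitted log2 change by edgeR was −0.16 to −0.10. On simulated counts, edgeR called 2% of the reporters changed by 2 on the log2 scale in either direction and 0% of those changed by 1. For DNA, edgeR called 0 of 10785 reporters (0%), with 486 (4.51%) under an unadjusted p of 0.05.

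The first called reporter, in pool A on the minus strand of chromosome 17 at 81202701, had RNA counts of 1723 and 2273 at dox 0 and of 3848 and 3829 at 0.01 ng/ml in cultures 1 and 2. DNA gave 987 and 898 counts without dox, then 593 and 414. Both measures moved in both cultures: the RNA values at 0.01 ng/ml lay above those at dox 0 and the DNA values below, without overlap. The reporter was called on these same counts, so their order only describes it. The RNA/DNA ratio of shares, which is 1 for a reporter with equal shares of RNA and DNA, was 1.59 and 2.06 without dox, then 6.00 and 7.98. The fitted log2 change was 2.13 ± 0.28 (SE; edgeR adjusted p = 0.0238). Its RNA counts went on to 11886 and 10399 at 0.1 ng/ml and to 28488 and 31434 at 100 ng/ml. These are shares of a library, and 57.6% and 57.5% of the pool A reporters had no RNA count at 100 ng/ml.

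The second, in pool C on the plus strand of chromosome 1 at 168056327, had RNA counts of 466 and 509 without dox and of 1235 and 1002 at the first dose. DNA gave 190 and 152 counts without dox, then 36 and 25, a fitted DNA change of −2.50 on the log2 scale that was not called. RNA at 0.01 ng/ml lay above dox 0 and DNA below it in both cultures. This reporter too was called on the counts given, so their order only describes it. At 0.1 ng/ml the DNA counts were 173 and 74. The fitted log2 change in RNA/DNA was 3.91 ± 0.53 (SE; edgeR adjusted p = 0.0327), and in the fit with the culture number as a block it was no longer past the threshold (edgeR adjusted p = 0.0799). Adjustment over the 4 pools together gave an edgeR adjusted p of 0.0573 for each of these 2 reporters, and DNA as an offset gave 0.485 for the one on chromosome 17 and 0.592 for the one on chromosome 1. The chromosome 17 reporter was also not past the threshold with DESeq2's size factors (edgeR adjusted p = 0.0897) or with library totals (edgeR adjusted p = 0.0794).

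Integrations of other pools beside these 2 sites also gave positive values. Within 100 kb lay 7 other reporters, 6 of them from another pool, and 7 of 7 had a positive fitted log2 change (43.5% of all reporters) and RNA in both libraries at 100 ng/ml (30.7% of all). In 6 of the 7 the change was positive in both cultures, as in 31.9% of all reporters, and 4 had an unadjusted edgeR p under 0.05, as in 4.93% of all. None of the 7 passed the edgeR threshold after adjustment.

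The closest pair lay 46 bases apart on chromosome 17. The pool C integration at 81202747 had RNA counts of 1030 and 1108 at dox 0 and of 2134 and 2202 at 0.01 ng/ml, with DNA counts of 534 and 377 and then 388 and 565. RNA at 0.01 ng/ml was above that at dox 0 in both cultures, while the DNA ranges overlapped. Its fitted log2 change was 1.18 ± 0.34 (SE; edgeR adjusted p = 0.576). Like its neighbour in pool A it had more RNA counts at the higher doses, with 28981 and 22405 at 100 ng/ml. In those libraries 56.3% and 64.2% of the pool C reporters had no RNA count. The counts are shares of a library, so more RNA per cell cannot be read from them. Farther off, the fitted log2 change was 1.97 ± 0.84 in pool C at 4.23 kb and 0.35 ± 0.49 in pool B at 5.45 kb. In pool A at 73.1 kb it was 0.34 ± 0.38 (SE).

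On chromosome 1, the pool D integration at 168067445 lay 11.1 kb from the called one. RNA gave 5012 and 5166 counts without dox, then 9270 and 7197 at the first dose, and DNA gave 903 and 732, then 791 and 869. RNA was above the dox 0 values in both cultures and the DNA ranges overlapped. The fitted log2 change was 1.09 ± 0.23 (SE; edgeR adjusted p = 0.497). A pool A integration lay nearer, at 2.99 kb, with log2 changes of 1.15 and 0.07 in cultures 1 and 2. Its fitted change was 0.47 ± 0.36, and that of a pool B integration at 16.2 kb was 2.01 ± 0.82 (SE).

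**Figure D4:**
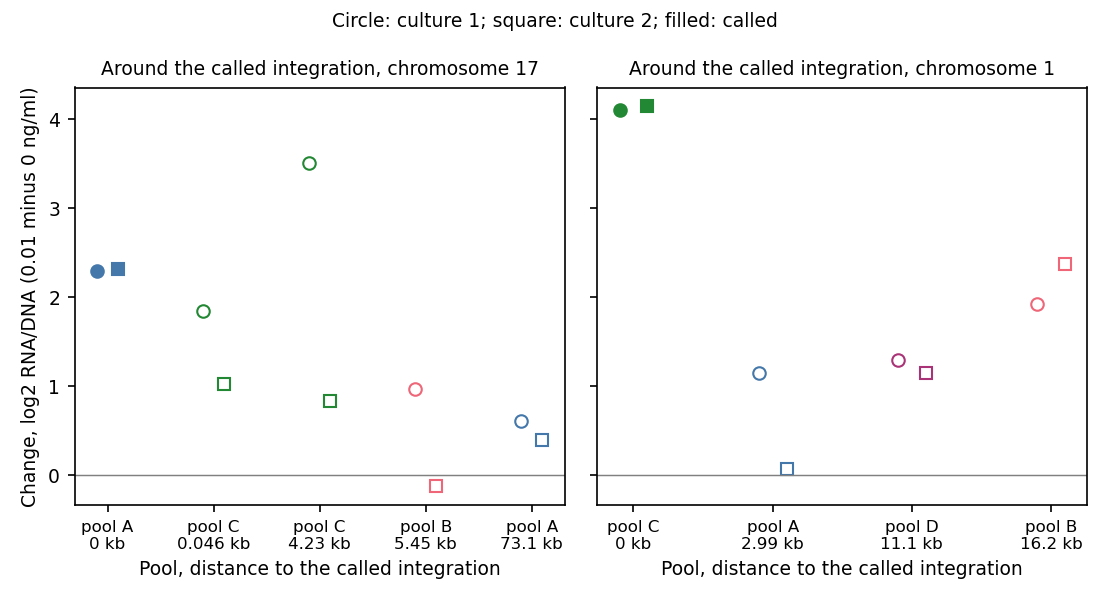
Log2 RNA/DNA change (0.01 minus 0 ng/ml) of the 2 called integrations (filled) and of the 7 others within 100 kb (open), ordered by distance, for culture 1 (circles) and culture 2 (squares). All but the square of pool B on chromosome 17 lie above 0.

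The other reporters named by rule had the smallest unadjusted p in each pool and a mean RNA count of 100 or more. Their RNA/DNA also had to move the same way in both cultures. With the 2 called ones, the 8 on the rising side had fitted log2 changes of 1.09 to 3.91 and the 8 on the falling side −2.72 to −1.36, the latter with edgeR adjusted p values of 0.462 to 0.991. All 8 on the rising side had RNA in both libraries at 100 ng/ml, with 741 to 45733 counts. Over all reporters that share was 30.7%. This share and those given for the falling side also cover reporters below a mean RNA count of 100. On the falling side 7 of 8 had no RNA at 100 ng/ml (48.4% of all reporters), and 5 had none at 0.1 ng/ml either (16.2% of all). DNA moved against RNA/DNA in these reporters: 8 of 8 on the falling side had a fitted DNA change above 0, and 7 of 8 on the rising side one below 0. DNA is part of the ratio by which they were ranked.

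On the rising side, the reporter in pool A at 3761472 on chromosome 4 had RNA counts of 3274 and 3182 at dox 0 and of 5813 and 5523 at 0.01 ng/ml, and its fitted change was 1.73 ± 0.29 (log2, SE; edgeR adjusted p = 0.0770). In pool C, the reporter at 89630755 on chromosome 3 had 1389 and 1564 and then 2511 and 2774 RNA counts, with a fitted change of 1.89 ± 0.31 (log2, SE; edgeR adjusted p = 0.0859). RNA at 0.01 ng/ml lay above dox 0 in both cultures of either reporter, which were picked for a rise of RNA/DNA in both. They differed at the top dose, where the pool A reporter had 16386 and 19782 RNA counts and the pool C reporter 831 and 741.

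On the falling side, the reporter in pool C at 89076166 on chromosome 6 had RNA counts of 1367 and 1382 at dox 0 and of 504 and 435 at 0.01 ng/ml, with DNA counts of 820 and 733 and then 899 and 886. Its fitted log2 change was −1.52 ± 0.37 (SE; edgeR adjusted p = 0.462). RNA then stood at 38 and 22 counts at 0.1 ng/ml and at 0 in both libraries at 100 ng/ml, a lower count at each dose. In pool A, the reporter at 117042623 on chromosome 3 had RNA counts of 592 and 719 at dox 0, 227 and 230 at 0.01 ng/ml and 0 in the 4 libraries at the higher doses. Its fitted log2 change was −1.77 ± 0.47 (SE; edgeR adjusted p = 0.486).

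Part of the change was shared by both cultures of a pool. From how far the 2 cultures' log2 changes covaried (root of their covariance), that part had an SD of 0.55 ± 0.050 between reporters (SD, n = 4 pools), against an SD of 1.12 ± 0.027 for the changes of culture 1 and 1.13 ± 0.072 for those of culture 2. The r between the cultures' changes was 0.24 ± 0.041 over reporters (SD, n = 4 pools), and 60.5% ± 1.69 of reporters moved in the same direction in both. Positive in both were 32.0% ± 0.825 and negative in both 28.5% ± 1.11. Cultures at the same dose differed nearly as much from each other, with an SD over reporters of 0.94 ± 0.070 at dox 0 and 1.04 ± 0.050 at 0.01 ng/ml (SD, n = 4 pools).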

How the data were processed

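Per the file headers, the authors deposited raw read counts per barcode from cDNA and genomic DNA, beside the mapped place of every reporter. Bowtie2 2.0 and mm9 are named in the submitters' processing notes. For barcode filtering, no method is given in these sources. Python 3.11.15, numpy 2.4.6, pandas 2.3.3, R 4.3.3, edgeR 4.0.16, limma 3.58.1 and DESeq2 1.42.0 were used.

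edgeR's quasi-likelihood test of the assay by dose interaction was fitted per pool on its 16 libraries at 4 doses, with TMM in each assay and Benjamini-Hochberg adjustment in the pool at 0.05. The SE is the absolute log2 change over the square root of F. Other values are log2 RNA/DNA over library totals (pseudocount 1), centred in the pool. Dose labels were permuted exactly within cultures. limma tested window means over the 4 pools. The class and chromosome p values are two-sided.

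Per the labels' protocols a replicate number marks a culture that was divided over the doses, so the numbers pair samples. Same-numbered cultures' deviations at both doses had an r of −0.018 to 0.046 over reporters by pool. For DNA alone the r was −0.030 to 0.038. The counts thus show no trace of the pairing, which rests on the protocols. The named reporters were each one past the threshold and, in each pool, the 2 smallest-p rises and falls with a mean RNA count of 100 or more and the same direction in both cultures. Windows named were the 2 highest and 2 lowest by p, and chromosomes the highest and lowest. Chromosomes 4, 9, 12 and 17 and other single reporters were named after their values were seen. Reporters and lists were chosen with earlier results of these data known.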

Additional observations from a re-analysis of the deposited data

Results flagged for a closer look

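Of 43 sets of 4 pools or 8 cultures checked for a value far from the rest, 2 held one, both in pool D. Chance gives about 1 in 20. In pool D, the r over reporters between the change in RNA and the change in DNA was 0.036, and the share of reporters with a negative change in both cultures was 26.8%. In the other pools these values lay between −0.017 and −0.009 and between 28.8% and 29.2%.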

How the results depend on the processing

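The number of single reporters called was 2 in the main fit and 1 with DESeq2's size factors, 1 with library totals, 0 with DNA as an offset, 0 with adjustment over the 4 pools together, 4 with a DNA minimum of 100, 13 with only the libraries at dox 0 and 0.01, 113 with DESeq2's Wald test (34 higher, 79 lower) and 0 to 0 without any 1 replicate. With the culture number as a replicate block it was 2, of which 1 was shared with the main fit, and the DNA count stayed at 0. DNA calls numbered 0 to 4 without 1 replicate of either dose. The slope was 0.019 with the level from the same culture and 0.141 with the level from the dox 0.01 libraries of the other culture, a setting chosen after seeing the data. With RNA counts alone, X minus autosomes was 0.150, plus minus minus strand −0.016 and the chromosomes called numbered 4. X minus autosomes ranged from −0.00831 without pool B to 0.188 without pool A and was −0.00946 with no level strata. The strand difference was 0.018 without replicate 2 and −0.067 without replicate 1. Dense minus isolated ranged from 0.243 to 0.333 when a pool was left out. The windows called numbered 0 with a pseudocount of 5, a DNA minimum of 100, a mean RNA of 10 or more, 10 Mb windows or the level taken off, 0 without either replicate and 0 to 1 without a pool. The spread of the change was 0.627 with a pseudocount of 0.1 and 0.480 with 5. The cause of these moves was not tested. A change that leaves out 1 dox 0 replicate cannot be given for the slope, which needs the level of the other culture.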
